A study of Homo sapiens with 62 samples.

Results

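The 59 genes described here encode proteins of the oxidative phosphorylation system that are made from nuclear DNA. They were chosen by symbol, as a fixed list, out of the 55040 annotated rows of each deposited table, and each symbol had 1 row. Of the 59, 26 belong to complex I, 4 to complex II, 7 to complex III, 11 to complex IV and 10 to complex V, and the last, CYCS, encodes cytochrome c. NDUFA4 carries the name of a complex I subunit but is counted with complex IV, where its protein is now placed.

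Oxidative phosphorylation takes place in the inner membrane of the mitochondrion. Complex I and complex II pass electrons from NADH and succinate to ubiquinone, complex III hands them to cytochrome c, and complex IV hands them to oxygen. Complexes I, III and IV pump protons as they do so, and complex V, the ATP synthase, uses the returning protons to make ATP. The mitochondrial genome encodes a few core subunits of complexes I, III, IV and V, while every subunit of complex II and all other subunits are nuclear. Proliferating lymphoblastoid cells carry both glycolysis and respiration.

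The measurements came from GM12878, a human B-lymphoblastoid cell line immortalised with Epstein-Barr virus. The series made RNA libraries by SMART-seq, which copies polyadenylated RNA into full-length cDNA and amplifies it, and 20 of its 62 samples were analysed here. Each of the 20 held 1 part of a pool of 10 cells that had been divided into 10 parts, each then treated like a single cell, so that technical variation could be assessed. The numbered set is 10 splits whose titles count from 1 to 10, and the unnumbered set is 10 splits whose titles give only a library number (232, 233 and 246 to 253). Both sets are the same untreated line, and the labels do not state that a set came from 1 pool. The p-values set the difference between the sets against the spread between splits, which may be technical. If a set came from 1 pool, its 10 splits are parts of that pool and not independent replicates. The sets also differ in laboratory experiment numbers and in depth, and these cannot be told apart from the set.

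Depth differed between the libraries. Estimated from the authors' confidence bounds, it was 11.8 to 20.6 M (mega) fragments for the numbered set and 23.3 to 38.7 M for the unnumbered set, apart from 7.79 M in library 252 and 0.128 M in library 247. Numbered splits 5 to 8, called run a here, carry laboratory experiment numbers that lie apart from those of the other libraries, and whether they were a batch is not given. The B lineage markers MS4A1 and CD79A were higher in the numbered splits (limma adjusted p = 0.00401 and 0.00274), and their part in the differences below was not tested. An exact 0 can be an RNA that was not captured or not estimated. The erythroid markers stayed under 1 FPKM (fragments per kilobase of transcript, scaled to library size) in every library. The 5 T cell markers summed to at most 53.4 FPKM, the 5 monocyte markers to at most 53.8 FPKM and the 5 fibroblast markers to at most 2.61 FPKM. CD3D, CD14 and FCN1 were listed at 0 in all 20 libraries, but other markers of these lists were detected. The monocyte marker CSF1R reached 1 FPKM or more in 10 numbered and 8 unnumbered libraries, with a highest value of 53.8 FPKM. The T cell marker CD2 did so in 6 numbered and 1 unnumbered (highest 53.4 FPKM), and CD3E in 3 numbered and 0 unnumbered (highest 29.9 FPKM).

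Promoters of respiratory chain genes often carry sites for nuclear respiratory factor NRF1 and for ETS family factors such as GABPA, so both motifs were searched in the 250 bases before the start of each gene. RefSeq promoters (GRCh38.p14) were matched for 49 of the 59 members. The NRF1 core GCATGCGC was found on either strand in 10 of the 49 (20.4%), against 2.81% of 27305 promoters of the same length. The ETS core CCGGAAG was found in 15 (30.6%), against 8.82% of all. The 27305 promoters were not matched to those of the members in expression or GC content. Where the NRF1 core runs into its own reverse complement, both matches count as 1 promoter. Of the 49 promoters, 5 held both motifs and 20 held at least 1. A match is a string of letters in this window and not a bound site. NDUFS6 (chr5:1801157-1801406, plus strand), CYCS (chr7:25125261-25125510, minus strand) and COX5B (chr2:97645812-97646061, plus strand) are shown because they carry the motif and are described below. COX7C (chr5:86617691-86617940, plus strand) is shown as the most abundant member, with neither motif. Each is written 5′ to 3′ and ends at the base before the start, with motif matches in capitals.
NDUFS6: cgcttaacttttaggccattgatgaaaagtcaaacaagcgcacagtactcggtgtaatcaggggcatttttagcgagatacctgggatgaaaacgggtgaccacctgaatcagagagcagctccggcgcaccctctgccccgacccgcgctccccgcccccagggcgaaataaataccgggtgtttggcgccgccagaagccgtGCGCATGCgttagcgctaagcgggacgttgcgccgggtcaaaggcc
CYCS: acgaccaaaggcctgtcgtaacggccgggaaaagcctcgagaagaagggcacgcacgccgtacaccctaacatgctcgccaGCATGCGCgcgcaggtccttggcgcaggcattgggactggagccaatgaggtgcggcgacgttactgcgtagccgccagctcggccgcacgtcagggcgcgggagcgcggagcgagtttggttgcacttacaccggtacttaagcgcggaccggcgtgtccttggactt
COX5B: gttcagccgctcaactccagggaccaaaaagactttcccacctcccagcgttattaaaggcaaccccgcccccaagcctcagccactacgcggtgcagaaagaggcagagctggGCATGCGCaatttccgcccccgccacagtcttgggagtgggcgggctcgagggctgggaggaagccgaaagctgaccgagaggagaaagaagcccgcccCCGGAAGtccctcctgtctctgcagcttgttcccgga
COX7C: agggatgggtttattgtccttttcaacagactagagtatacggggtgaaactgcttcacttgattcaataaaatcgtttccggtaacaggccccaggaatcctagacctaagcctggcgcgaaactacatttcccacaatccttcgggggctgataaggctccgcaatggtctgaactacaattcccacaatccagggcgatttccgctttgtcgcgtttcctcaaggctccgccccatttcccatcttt
In NDUFS6 the NRF1 core lies on the minus strand, 46 bases before the start. In CYCS it begins 169 bases before the start on the plus strand. COX5B holds the NRF1 core 136 bases and the ETS core 37 bases before the start. The motifs were present both in members that differed between the sets and in members that did not pass the test.

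As a group the members were abundant, and each split detected most of them. A member was counted as detected at 1 FPKM or more. The numbered splits detected 51 to 58 of the 59 members, with a median of 57, and the unnumbered splits 44 to 55, with a median of 52.5. All rows tested were also detected more often in the numbered set. Their detected share was 33.9 to 65.1% (median 46.3%) in the numbered splits and 26.7 to 43.3% (median 40.85%) in the unnumbered splits. The splits with the fewest, numbered split 9 and unnumbered library 253, also detected the smallest shares of all 10506 rows tested, 33.9% and 26.7%. In all 20 libraries, 37 members (62.7%) were detected, against 7.77% of the rows tested. The members had a median transcript length of 684 bases and a median GC content of 49.4%, against 1383 bases and 47.7% for the rows tested. In pooled cells, fewer cells of a kind and less RNA per cell cannot be told apart.

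The 59 members together held nearly the same share of each set's FPKM. They summed to 26178 to 46082 FPKM in the numbered splits and to 23788 to 33438 FPKM in the unnumbered libraries. As a share of the library's summed FPKM this was 2.60 ± 0.22% in the numbered splits and 2.58 ± 0.264% in the unnumbered libraries (SD, n = 10 each). The 3 numbered splits with the lowest sums, 7, 8 and 9, also had the 3 lowest totals over all rows of their set, 1073955 to 1172688 FPKM, against 1443297 to 1560586 FPKM in the other 7.

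The complexes contributed unequally, and complex IV was higher in most numbered splits than in any unnumbered library. No test was run on these sums. Its 11 members summed to 14212 ± 3510 FPKM in the numbered splits and to 8502 ± 1676 FPKM in the unnumbered libraries (SD, n = 10), a ratio of 1.67. Without run a, a setting added after seeing the data, the ratio was 1.73. The lowest, median and highest sums were 8188, 15633 and 19687 FPKM in the numbered splits and 4777, 9158 and 9809 FPKM in the unnumbered libraries. In 9 of 10 numbered splits complex IV lay above every unnumbered library, and split 9 was the exception. The lowest unnumbered value, 4777 FPKM, came from the shallow library 247. Complex IV made up 31.3 to 42.9% of the members' FPKM in the numbered splits and 20.1 to 32.1% in the unnumbered libraries. The ratio was 1.39 on the TPM scale, in which every library has the same total.

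Complex I, the largest, summed to 9471 ± 2063 FPKM over its 26 members in the numbered splits and to 8828 ± 779 FPKM in the unnumbered libraries (SD, n = 10), a ratio of 1.07 that turned to 0.892 on the TPM scale and to 0.898 after size factors. The numbered splits lay on both sides of the unnumbered range, 5 above it and 3, splits 7 to 9, below it. Complex III had sums of 2461 to 4350 FPKM and of 1862 to 3848 FPKM, a ratio of means of 1.25, or 1.06 on the TPM scale. For complex V the sums were 5371 to 10082 FPKM and 7165 to 9930 FPKM, with a ratio of 0.936, which was 1.04 without run a and 0.785 on the TPM scale. Complex II was the smallest, at 9.80 to 1589 FPKM in the numbered splits and 369 to 1770 FPKM in the unnumbered libraries, a ratio of means of 0.887, or 0.725 on the TPM scale. CYCS, the single gene for the somatic electron carrier between complexes III and IV, ranged from 207 to 881 FPKM and from 360 to 1013 FPKM. Its median was 524 FPKM in the numbered and 569 FPKM in the unnumbered libraries, and the ratio of means was 0.818, or 0.678 on the TPM scale.

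**Figure D1:**
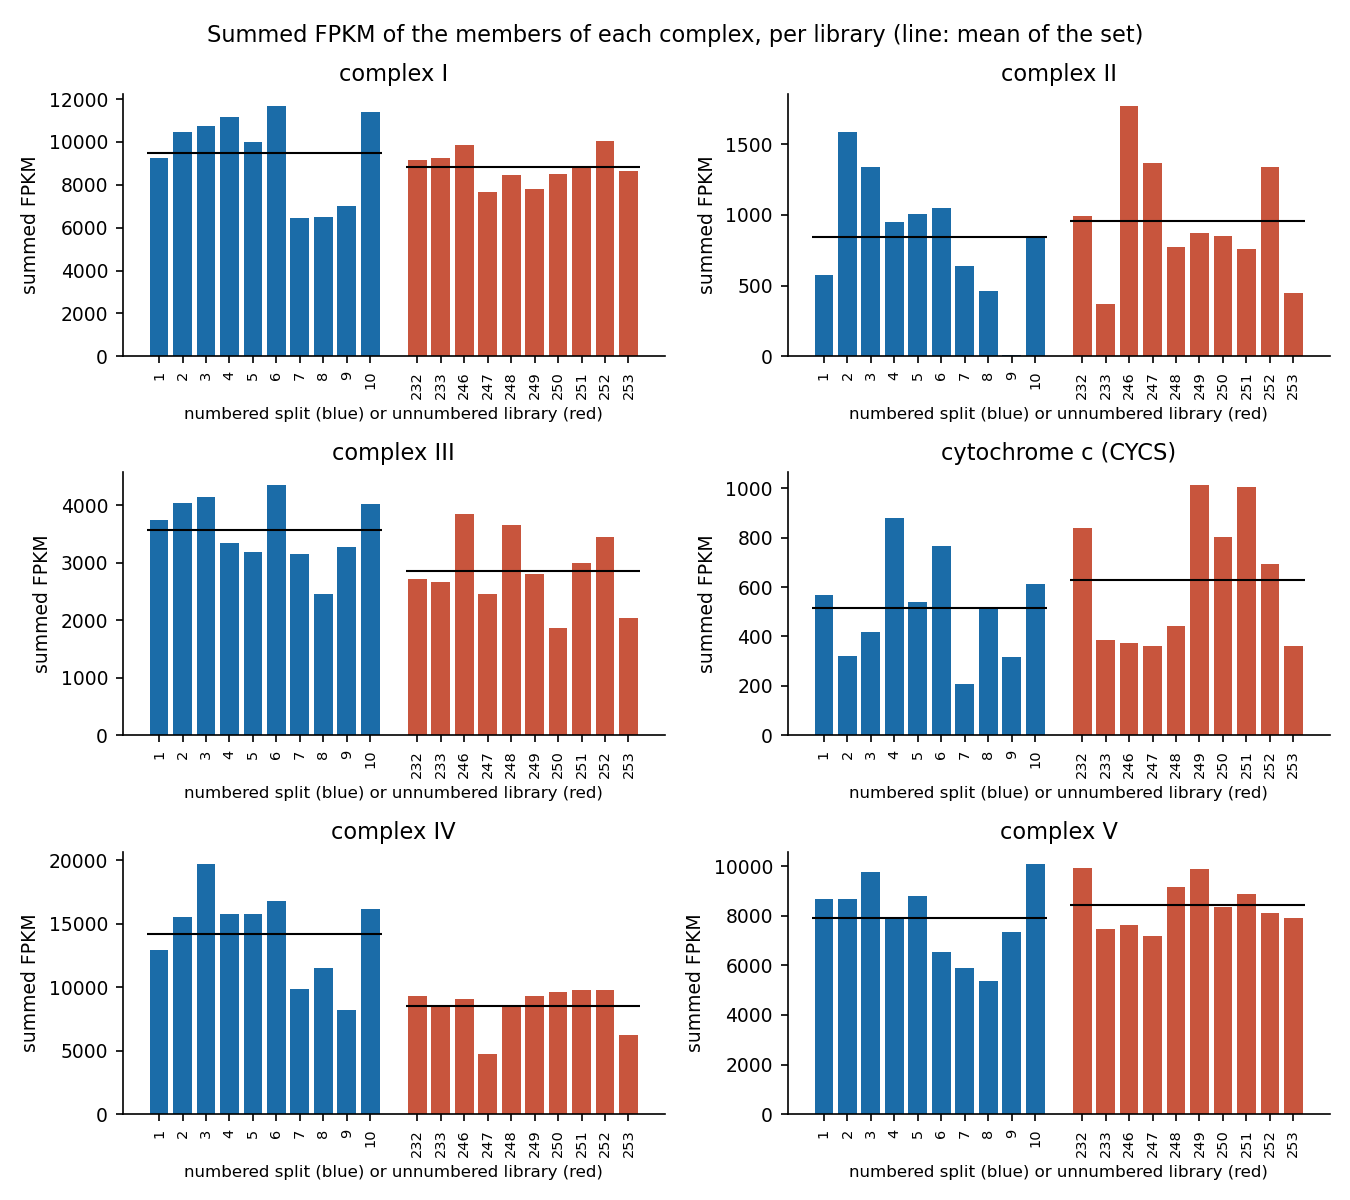
Summed FPKM of the members of each complex in each library, with numbered splits in blue, unnumbered libraries in red and a line at the mean of each set; every vertical axis starts at 0. Complex IV lay higher in 9 of 10 numbered splits than in any unnumbered library, and complex II reached only 9.80 FPKM in numbered split 9.

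Single members were tested with limma on log2(FPKM + 1) over all rows with a mean of 1 FPKM or more, and a member passed where its p after Benjamini-Hochberg adjustment was below 0.05. Differences are given as numbered minus unnumbered on that scale, which understates changes of low genes. Of the 58 members tested, 7 were higher in the numbered splits, against 3.93% of all rows tested, and 1 was higher in the unnumbered libraries, against 1.38%. In either direction 8 members (13.8%) passed, against 5.31% of all rows. Of all 558 rows past the threshold 74.0% were higher in the numbered splits, a share that was 62.4% after size factors and 49.8% with a trend on transcript length removed. Calls were more frequent among abundant rows. Of rows with a mean of 100 FPKM or more 24.5% passed in either direction, and of the 46 members in that range 5 (10.9%) did. The share of members past the threshold therefore lay above that of all rows but below that of rows as abundant as most members. NDUFS1, a core iron-sulfur subunit of complex I, was not tested, because its estimate failed in unnumbered library 249. Its numbered values ran from 0.102 to 199 FPKM, and its unnumbered values from 0 to 213 FPKM.

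The median difference over the members was 0.498, beside 0.352 over all rows. How far the 2 medians lay apart depended on the setting. After size factors, which set the typical abundant gene level between libraries, the medians were 0.278 and 0.267, and 5 members were higher in the numbered splits, 2 in the unnumbered. Without run a the medians were 0.507 for the members and 0.0557 for all rows, and with a pseudocount of 10 they were 0.391 and 0.111. The members' median lay below that of all rows with a pseudocount of 0.1, at 0.585 and 0.655. On the TPM scale the 2 were nearly equal, at 0.263 and 0.265. Of the 58 members, 43 had a positive difference, beside 6297 of the 10506 rows. With the length trend removed, 31 members and 5265 of 10306 rows did.

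In complex IV all 11 members had a positive difference, and COX7C and COX5A passed. After size factors, or on the TPM scale, the difference was positive for 10 of the 11, and with a trend on transcript length removed for 8. COX7C, a small structural subunit (chromosome 5, 85913721 to 85916779), had the highest mean level of all members. Its lowest, median and highest values were 2058, 3305 and 5585 FPKM in the numbered splits and 688, 1428 and 2738 FPKM in the unnumbered libraries. The ranges overlapped, with 6 numbered splits above every unnumbered library and 8 unnumbered libraries below every numbered split. The difference was 1.30 ± 0.233 (SE; limma adjusted p = 0.000491), and it passed under each of the 14 settings tried. The 688 FPKM of library 247 rested on about 8.65 fragments.

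COX5A, a subunit on the matrix side of the enzyme (chromosome 15, 75212132 to 75230509), was lower in level but differed more. It measured 41.7, 462 and 802 FPKM (lowest, median, highest) in the numbered splits and 0.0791, 43.0 and 150 FPKM in the unnumbered libraries. Only numbered split 5, of run a, fell into the unnumbered range, and the other 9 lay above it. The difference was 3.49 ± 0.756 (SE; limma adjusted p = 0.00395) and passed under all 14 settings.

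Of the complex IV members that did not pass, COX6B1 and COX5B lay just outside the threshold. COX6B1, on the side of cytochrome c, lay at 461 to 1488 FPKM with a median of 1258 FPKM in the numbered splits, and at 208 to 842 FPKM with a median of 635 FPKM in the unnumbered libraries. Its difference was 0.91 ± 0.277 (SE; limma adjusted p = 0.0535). COX5B, a zinc-binding subunit whose promoter is printed above, was the least abundant member of complex IV. Its range was 104 to 714 FPKM with a median of 336 FPKM, and 0 to 466 FPKM with a median of 104 FPKM. Its difference was 3.29 ± 1.01 (SE; limma adjusted p = 0.058), and it was listed at 0 in 2 unnumbered libraries. NDUFA4, at medians of 562 and 612 FPKM, showed a difference of 0.07 ± 0.28 (SE; limma adjusted p = 0.914), a sign that turned after size factors. The tissue isoforms COX4I2, COX6A2, COX6B2, COX7A1, COX7B2, COX8C and NDUFA4L2, which replace the common subunits in lung, muscle, testis or hypoxic cells, stayed under 1 FPKM in all 20 libraries.

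In complex I, 3 members were higher in the numbered splits and 1 in the unnumbered libraries. NDUFS6, a zinc-binding accessory subunit (chromosome 5, 1801514 to 1816719), was the member of complex I with the lowest mean. It measured 39.1, 93.8 and 189 FPKM in the numbered splits and 0, 6.33 and 52.6 FPKM in the unnumbered libraries. Of the numbered splits, 8 lay above every unnumbered library, and 2 unnumbered libraries were listed at 0. The difference was 4.0 ± 0.807 (SE; limma adjusted p = 0.00193) and passed under all 14 settings.

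NDUFB7, an accessory subunit at the outer face of the membrane arm (chromosome 19, 14676892 to 14682886), was close to an on and off pattern. Its values were 0.156, 139 and 434 FPKM in the numbered splits, with 9 splits at 1 FPKM or more. In the unnumbered set it was listed at 0 in 8 libraries and stood at 0.132 FPKM in library 248 and at 183 FPKM in library 253. Library 253 lay above 5 of the numbered splits, and the other 9 unnumbered libraries lay below all of them. The difference was 4.95 ± 1.14 (SE; limma adjusted p = 0.00742), a value that depends on the pseudocount because of the zeros. Without run a it was not past the threshold (limma adjusted p = 0.065).

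NDUFA8, an accessory subunit of the same face (chromosome 9, 124894745 to 124922098), measured 2.59, 138 and 396 FPKM in the numbered splits and 0, 0.0715 and 112 FPKM in the unnumbered libraries. Of the numbered splits, 6 lay above the unnumbered range, while splits 7 and 9 stood at 2.59 and 3.07 FPKM. The difference was 4.06 ± 1.17 (SE; limma adjusted p = 0.0387), and 5 of the 14 settings did not pass, with adjusted p up to 0.105.

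NDUFA12, an accessory subunit related to the assembly factor NDUFAF2 (chromosome 12, 95290831 to 95397546), went the other way. It measured 301, 394 and 872 FPKM in the numbered splits and 379, 936 and 1465 FPKM in the unnumbered libraries. In the unnumbered set 7 libraries lay above every numbered split, and 3 numbered splits lay below every unnumbered library. The difference was -0.92 ± 0.262 (SE; limma adjusted p = 0.0358). It did not pass with run a as a covariate, nor without split 9 and libraries 247 and 253, with adjusted p of up to 0.0868.

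The most abundant complex I member was NDUFS5, an accessory subunit, at 342 to 1137 FPKM with a median of 1012 FPKM in the numbered splits and 332 to 1740 FPKM with a median of 708 FPKM in the unnumbered libraries. Its difference did not pass (limma adjusted p = 0.605). NDUFB10, a membrane arm subunit, was listed at 0 in 1 numbered and 5 unnumbered libraries, had medians of 91.5 and 0.407 FPKM, and did not pass (limma adjusted p = 0.209). The remaining complex I members had differences from -1.69 for NDUFB2 to 2.58 for NDUFB11, and none of them passed by limma. NDUFB2 passed by the exact rank-sum test (adjusted p = 0.0129), with 6 unnumbered libraries above every numbered split and 7 numbered splits below every unnumbered library.

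**Figure D2:**
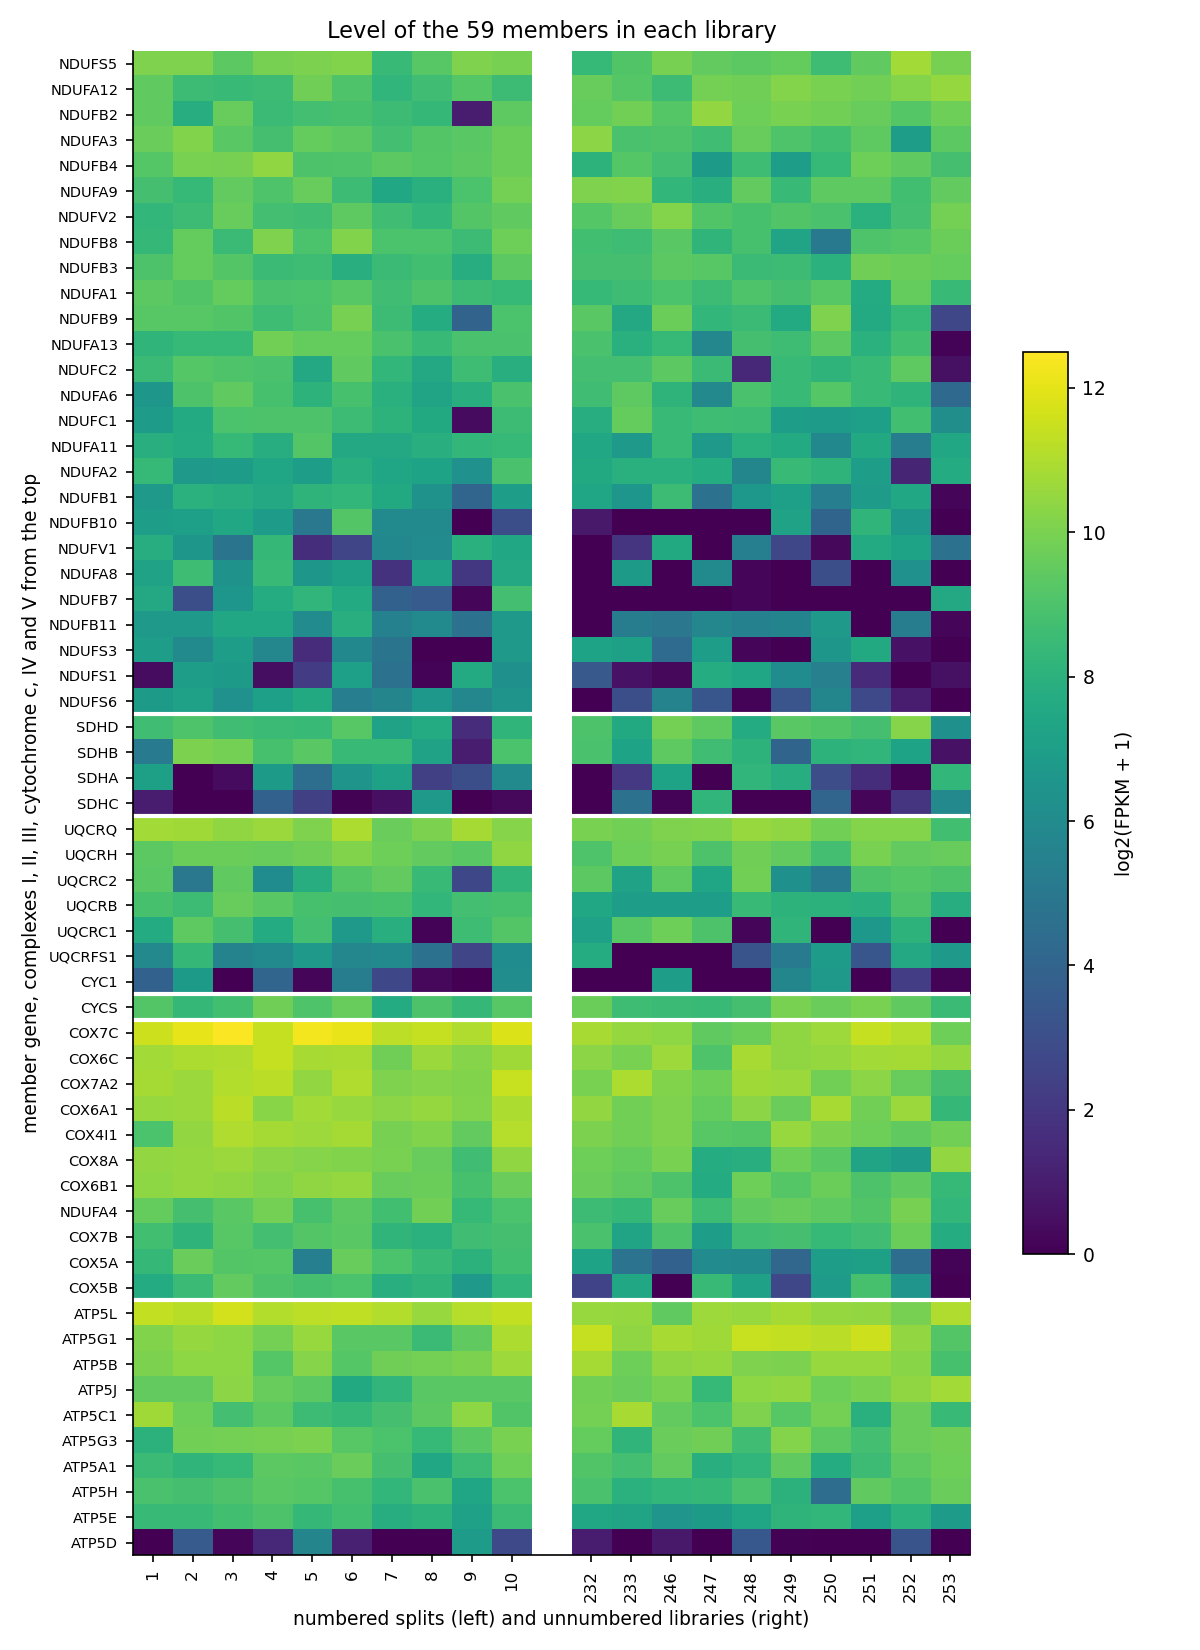
Level of the 59 members as log2(FPKM + 1), with libraries as columns (numbered splits left, unnumbered libraries right) and genes as rows, ordered by complex and mean level. COX7C is brightest in the numbered splits, NDUFB7 is dark in 9 of 10 unnumbered libraries, and SDHB and SDHD are dark in numbered split 9.

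Complex II held no member past the threshold by limma, nor by the exact rank-sum test, and none had an unadjusted p below 0.05. In numbered split 9 SDHB, SDHC and SDHD were each at the lowest value of their set, though SDHC was under 1 FPKM in 7 of the 10 numbered splits. SDHB, the iron-sulfur subunit, at 0.917 FPKM, SDHD, a membrane anchor, at 1.97 FPKM, and SDHC, the other anchor, at 0. SDHA, the flavoprotein, stood there at 6.92 FPKM, within its range of 0.000159 to 139 FPKM. SDHD was the most abundant by its mean over both sets, at medians of 358 and 529 FPKM, and its next lowest numbered value was 146 FPKM. SDHC was the least abundant, with medians of 0.314 and 1.42 FPKM, and was listed at 0 in 5 libraries. Its highest value, 296 FPKM in library 247, rested on about 3.63 fragments.

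In complex III 1 of 7 members passed. UQCRB, a small ubiquinone-binding subunit (chromosome 8, 97238148 to 97247862), measured 314, 460 and 765 FPKM in the numbered splits and 124, 225 and 517 FPKM in the unnumbered libraries. All but 2 unnumbered libraries lay below every numbered split. The difference was 1.12 ± 0.314 (SE; limma adjusted p = 0.0336), and it was 0.89 after size factors and 0.65 with the length trend removed, neither past the threshold. It also did not pass on the TPM scale, with the GC trend removed or with run a as a covariate (limma adjusted p = 0.0857, 0.146 and 0.0641). UQCRQ, the most abundant, ranged from 807 to 2017 FPKM and from 416 to 1507 FPKM, and UQCRH, the hinge protein that docks cytochrome c1, from 626 to 1382 FPKM and from 431 to 1001 FPKM. Neither passed (limma adjusted p = 0.313 and 0.605). CYC1, which encodes cytochrome c1 itself, was the least abundant, at medians of 9.53 and 0.0439 FPKM, and was listed at 0 in 7 libraries. CYCS gave a difference of -0.28 ± 0.308 (SE; limma adjusted p = 0.63).

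Complex V was split in sign, with 5 of 10 members positive. By limma 1 member passed, ATP5L, and by the exact rank-sum test 3 did. The other 2 were ATP5E, higher in the numbered splits, and ATP5J, higher in the unnumbered libraries. Their adjusted p was 0.0282 and 0.0434 by the rank-sum test and 0.139 and 0.192 by limma. ATP5L, subunit g of the membrane part (chromosome 11, 118271869 to 118302211), measured 1527, 2364 and 3163 FPKM in the numbered splits and 705, 1506 and 2086 FPKM in the unnumbered libraries. Only split 8, of run a, fell into the unnumbered range. The difference was 0.73 ± 0.171 (SE; limma adjusted p = 0.00879), but it was 0.50 after size factors and 0.27 with the length trend removed, neither past the threshold. On the TPM scale and with the GC trend removed ATP5L did not pass either (limma adjusted p = 0.0867 and 0.29). ATP5D, the delta subunit of the rotor, was the least abundant, with medians of 1.42 and 0.0417 FPKM and at least 1 FPKM in 6 numbered and 2 unnumbered libraries.

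The c ring of ATP synthase is built from 1 mature protein that 3 genes encode, and their proportions are given for each set. ATP5G1 measured 368 to 1971 FPKM with a median of 1032 FPKM in the numbered splits, and 578 to 3028 FPKM with a median of 2113 FPKM in the unnumbered libraries. Its difference, -0.96 ± 0.302 (SE), did not pass (limma adjusted p = 0.0646), though it passed under 6 of the 14 settings, size factors among them. Without run a, or with run a as a covariate, the difference was -0.65 and did not pass (limma adjusted p = 0.398 and 0.411). ATP5G2, which is not among the 59, was the reverse, at 610 to 1636 FPKM with a median of 1212 FPKM against 232 to 704 FPKM with a median of 530 FPKM, and passed (1.21 ± 0.241, SE; limma adjusted p = 0.00176). ATP5G3 had medians of 782 and 777 FPKM (limma adjusted p = 0.992). The sum of the 3 had a median of 3062 FPKM in the numbered and 3270 FPKM in the unnumbered libraries. ATP5G1 exceeded ATP5G2 in 3 of 10 numbered splits and in 9 of 10 unnumbered libraries, with median ratios of 0.806 and 4.07. That ratio was looked at after the values were seen and was not tested.

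**Figure D3:**
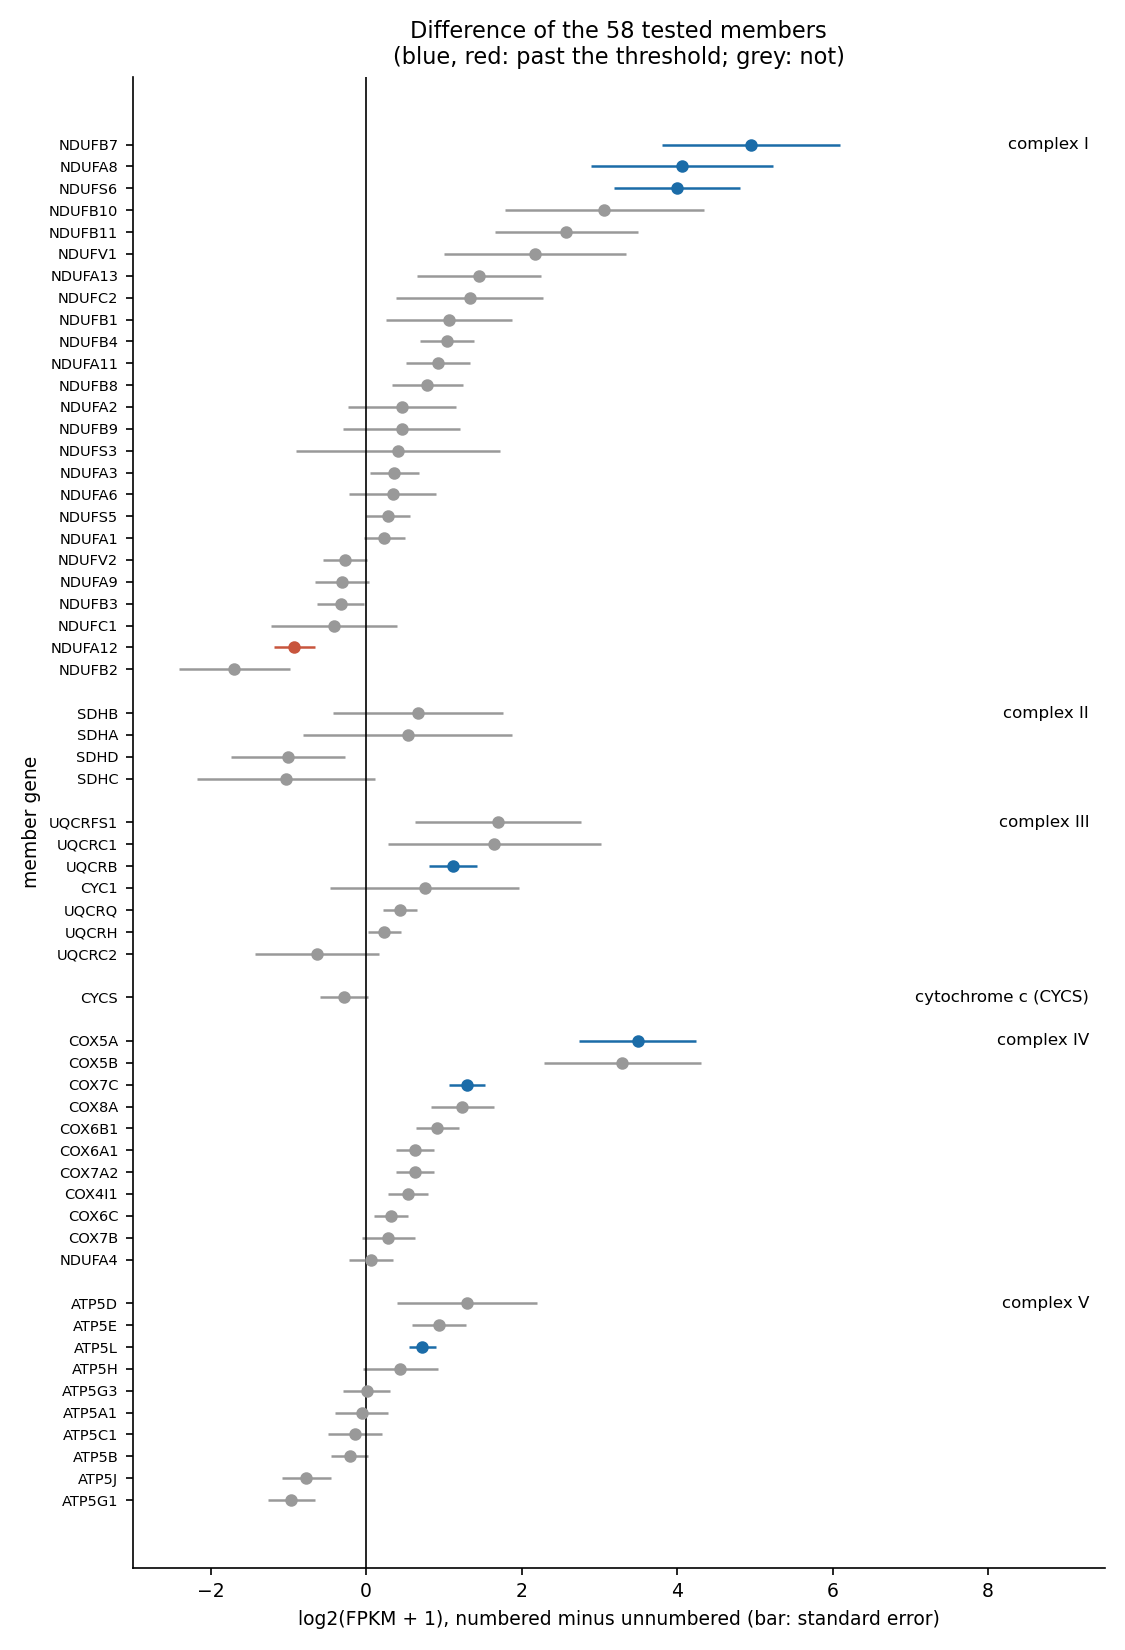
Difference of each of the 58 tested members on the log2(FPKM + 1) scale, numbered minus unnumbered, with its standard error, grouped by complex. Blue marks the 7 members past the threshold in the numbered direction, red the 1 in the other, and all 11 complex IV members lie to the right of 0.

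Core subunits made from the mitochondrial genome were examined beside the nuclear ones. Of those 13 genes, 8 were higher in the unnumbered libraries and none in the numbered splits, with a median difference of -0.60. Of all rows tested 1.38% were higher in the unnumbered libraries, and of rows with a mean of 100 FPKM or more 24.5% passed in either direction. Between 5 and 11 were higher in the unnumbered libraries under the other settings, and none was higher in the numbered splits under any of the 14. They summed to 31576 to 64811 FPKM in the numbered splits and to 64752 to 100261 FPKM in the unnumbered libraries, or 3.72 ± 0.434% and 7.18 ± 0.68% of the summed FPKM (SD, n = 10). Per library, the ratio of mitochondrial to nuclear subunit FPKM was 1.21 to 1.81 in the numbered splits and 2.27 to 3.76 in the unnumbered libraries, without overlap. Within complex IV it was 1.10 to 1.91 against 2.89 to 7.43, and within complex V 1.15 to 2.37 against 2.51 to 4.2. In complex I (1.18 to 2.01 against 1.71 to 2.84) and complex III (0.639 to 1.74 against 1.41 to 3.80) the ranges overlapped. MT-CO1, the catalytic subunit of complex IV, ranged from 2494 to 6838 FPKM and from 7197 to 12010 FPKM, with a difference of -1.34 ± 0.138 (SE; limma adjusted p = 2.08e-07). The most abundant was MT-ATP8 of complex V, which overlaps MT-ATP6, so their reads cannot be told apart with certainty; it gave -1.03 ± 0.126 (SE; limma adjusted p = 2.62e-06).

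**Figure D4:**
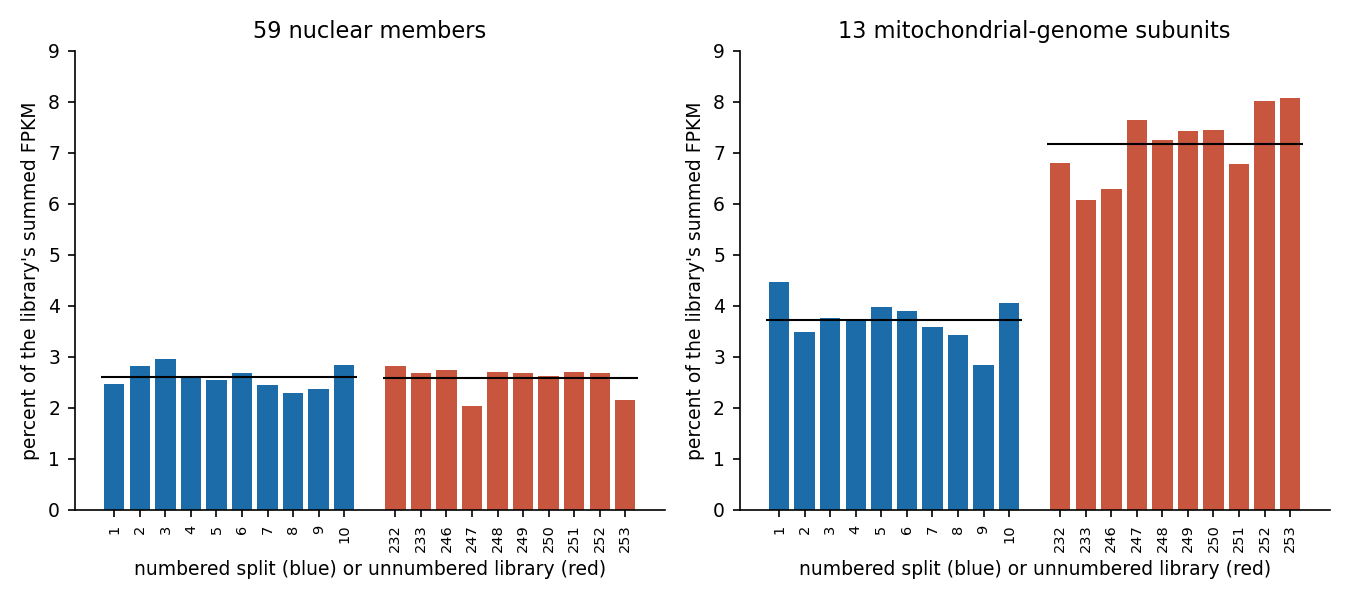
Share of each library's summed FPKM held by the 59 nuclear members (left) and by the 13 subunits of the mitochondrial genome (right), with lines at the mean of each set and axes from 0. The nuclear shares are 2.60% and 2.58% on average, while the mitochondrial shares are 3.72% and 7.18%.

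Other genes of the pathway are given by list. For comparison, 3.93% of all rows tested were higher in the numbered splits and 1.38% in the unnumbered libraries. Of rows with a mean of 100 FPKM or more 24.5% passed in either direction. Of 21 further nuclear subunits, 3 were higher in the numbered splits, ATP5G2 and the complex I core subunits NDUFS7 (4.79 ± 1.01, SE) and NDUFS8 (4.12 ± 1.06, SE; limma adjusted p = 0.00292 and 0.0188), and none in the unnumbered libraries. The median difference of that list was 0.83. Its most abundant gene, ATP5J2, had medians of 2272 and 2453 FPKM. Of 27 assembly factors 25 were tested and 1 passed, COX15, which takes part in making heme A for complex IV. COX15 reached 69.8 FPKM at most over the numbered splits and lay at 2.36 to 715 FPKM over the unnumbered libraries (-4.07 ± 1.06, SE; limma adjusted p = 0.0195). The copper chaperone COX17 was the most abundant assembly factor, at medians of 500.5 and 302 FPKM. Of 14 genes of the tricarboxylic acid cycle none passed by limma or by the rank-sum test, and 2 had an unadjusted p below 0.05. MDH2 was the most abundant of these, at medians of 532 and 511 FPKM.

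Of 7 carriers and porins of the mitochondrial membranes, the ADP/ATP carrier SLC25A6 (3.51 ± 0.531, SE; limma adjusted p = 6.49e-05) and the porin VDAC2 (3.72 ± 1.11, SE; limma adjusted p = 0.0489) were higher in the numbered splits. The porin VDAC3 was higher in the unnumbered libraries (-1.63 ± 0.386, SE; limma adjusted p = 0.00917). In either direction 5.31% of all rows tested passed, and 24.5% of those with a mean of 100 FPKM or more. SLC25A5, a further ADP/ATP carrier, was the most abundant, at medians of 1803 and 2383 FPKM, and did not pass (limma adjusted p = 0.355). Of 13 regulators of mitochondrial gene expression 11 were tested and none passed by limma, 3 had an unadjusted p below 0.05 and 1 passed by the rank-sum test. TFAM, which packages mitochondrial DNA, was the most abundant of them, at medians of 54.1 and 125 FPKM.

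The members' differences went with the GC content of their transcripts. Over the 58 tested members Spearman's rho between difference and GC content was 0.424, and over the tested rows with a mean of 100 FPKM or more it was 0.243, a description over genes that share the same 20 libraries. The 19 members of highest GC content (53.8 to 68.7%) had a median difference of 0.93, with 18 positive, and the 19 of lowest GC content (38.7 to 45.9%) had a median of 0.28, with 11 positive. Of the 5 members with a median under 1 FPKM in the unnumbered libraries, 4 were in the highest group. The number of members past the threshold did not rise with GC content. In the lowest group 3 were higher in the numbered splits and 1 in the unnumbered libraries. Among the 20 members of middle GC content 2 passed, and in the highest group 2, all higher in the numbered splits. With transcript length rho was 0.129 over the members and -0.239 over the abundant rows. With a GC trend removed within each library, the number of members past the threshold was 4 in the numbered direction and 2, NDUFA12 and ATP5G1, in the other. The part of GC content in the differences was not tested beyond that setting.

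Spread between splits followed the level. The coefficient of variation (CV, SD over mean of the 10 libraries of a set) is given for the numbered and then the unnumbered set. By the mean of both it was lowest for ATP5L, at 0.177 and 0.264, UQCRH, at 0.263 and 0.267, and UQCRQ, at 0.274 and 0.275. By the same mean it was highest for SDHC, at 2.63 and 2.31, NDUFB7, at 1.01 and 3.16, and ATP5D, at 2.01 and 1.88. Among members with a mean of 300 to 1000 FPKM the median CV was 0.43 in the numbered splits and 0.513 in the unnumbered libraries, beside 0.41 and 0.499 for all rows of that level. At 1000 FPKM or more it was 0.306 and 0.369, beside 0.234 and 0.266. The order of the members was largely shared, with a Spearman's rho of 0.885 between the medians of the 2 sets over 59 genes, again a description over genes.

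Subunits that assemble at 1 copy per complex differed widely in transcript level. In the numbered set the medians of complex IV members ran from 336 FPKM for COX5B to 3305 FPKM for COX7C, and those of complex I from 51.3 FPKM for NDUFS1 to 1012 FPKM for NDUFS5. In the unnumbered set complex IV ran from 43.0 FPKM for COX5A to 1482 FPKM for COX6C. FPKM is scaled by transcript length, and other properties of a transcript that bear on its level were not corrected for.

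**Figure D5:**
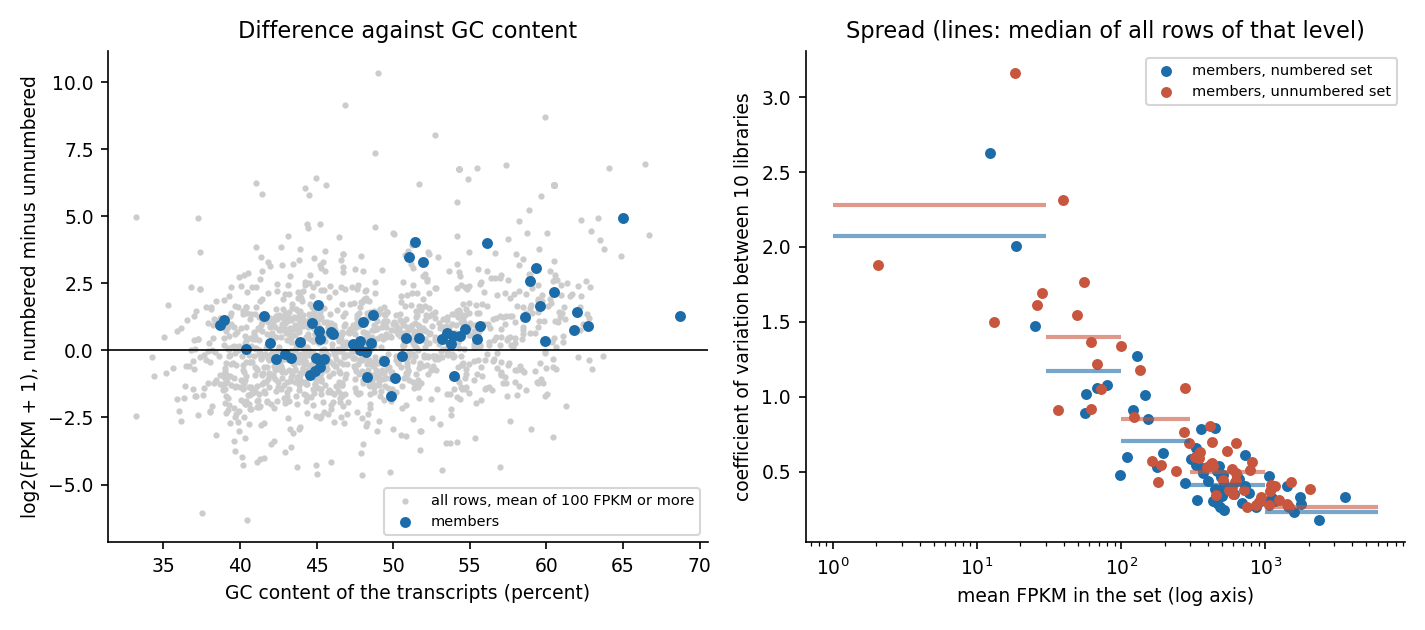
Left, the difference of each tested member (blue) and of all tested rows with a mean of 100 FPKM or more (grey) against the GC content of their transcripts. Right, the CV of each member against its mean FPKM on a log axis, by set, with lines at the median CV of all rows of that level; the CV falls as the level rises, for members and for all rows alike.

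Rows of processed pseudogenes can take up reads of their parents. The tables held 96 pseudogene rows named after 31 of the members, of which 78 were at 0 in every library and 14 had a mean of 1 FPKM or more. The largest was COX6A1P2, at a mean of 432 FPKM beside 1337 FPKM for COX6A1, or 32.3%. COX7CP1 had a mean of 191 FPKM, 7.54% of that of COX7C, and was higher on average in the numbered splits, at 270.0 FPKM against 112 FPKM. The levels of these parents are uncertain to that extent.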

How the data were processed

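Per the labels' protocols, cDNA was made with a SMARTer kit, libraries with Nextera, and reads with a HiSeq 2000. The deposited tables hold FPKM with confidence bounds and a status for each gene, made by the authors. The submitters' processing notes name Cufflinks 2.0.2 as well as TopHat 1.4.1. The sources used here do not give their genome build. Gene coordinates are printed from the files, 1-based.

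Left out were 5797 rows marked LOWDATA throughout and 128 marked FAIL in at least 1 library. Of the 49115 kept, 10506 had a mean of 1 FPKM or more and were tested. limma 3.58.1 (R 4.3.3, trended variance) was run on log2(FPKM + 1), 10 numbered against 10 unnumbered libraries, with Benjamini-Hochberg adjustment over all rows. Other values came from pandas 2.3.3, numpy 2.4.6, statsmodels 0.14.6 and scipy 1.17.1 under Python 3.11.15.

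Depth was estimated from the bounds of 10 mitochondrial genes, whose fragment number divided by FPKM lies on a line against gene length (largest residual 0.963%), so the precision of a value rests on an estimate. GENCODE 29 gave the length and GC content of transcripts and covered 98.1% of tested rows. MT-ATP8 was matched by identifier. The members and lists were chosen with earlier results of these data known. Named with values were the highest and lowest member of each complex, CYCS, NDUFA4, the ATP5G genes, members past the threshold and the 2 just outside it, the 3 listed at 0 most often, the 3 with the lowest and the 3 with the highest CV, and from each list the most abundant gene and up to 2 past the threshold. Other genes were named after their values were seen. Alternatives were another pseudocount (0.1 or 10), filter, scaling, length or GC trend, libraries left out, run a as a covariate and an exact rank-sum test. The other 42 samples were not analysed here.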

Additional observations from a re-analysis of the deposited data

Results flagged for a closer look

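The named members, the complex sums and the number of detected members gave 56 sets of 10 values, each examined for a single library far from the other 9. For independent values with a normal spread the rule marks about 5% of sets, and here it marked 8. That rate does not hold for these sets. Some members were named for their CV, zeros or test result, and all sets share the same libraries. The number marked is therefore a description. On the log2(FPKM + 1) scale, SDHD stood at 1.57 in numbered split 9, with the next value at 7.20. COX5A was at 5.42 in numbered split 5, with the next at 8.03. NDUFS5 was at 8.42 in numbered split 7, with the next at 9.28, and ATP5L was at 10.6 in numbered split 8, with the next at 11.1. Unnumbered library 253 gave the other 4. There UQCRQ was at 8.70, COX5A at 0.11 and ATP5G1 at 9.18, each the lowest of the set, with the nearest libraries at 9.84, 3.86 and 10.4. NDUFB7 was at 7.52 in library 253, the highest of the set, with the next at 0.18. Library 253 detected 44 members, the fewest of all 20, at an estimated depth of 34.7 M fragments.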

How the results depend on the processing

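No paired analysis was possible because the unnumbered libraries carry no split numbers. The number of members higher in the numbered set was 7, and it was 4 with a length trend removed, 4 with a GC trend removed and 5 to 9 under the other settings, members outside the 7 included. The 1 member higher in the unnumbered set became 2 with a mean of 10 FPKM or more, after size factors and with the GC trend removed, 3 on the TPM scale, with the length trend removed and with the exact rank-sum test, and 0 with run a as a covariate (19 members at an unadjusted p below 0.05 there). The members' median difference of 0.498 was 0.046 with the length trend and 0.17 with the GC trend removed. These 2 settings shifted the median of all rows by -0.324 and -0.357. All rows past the threshold numbered 558, of which 74.0% were higher in the numbered set; this share was 62.4% after size factors, 61.9% on the TPM scale, 49.8% with the length trend and 55.1% with the GC trend removed. The rank-sum test called 953. The GC trend, and the complex sums without run a or without split 9 and libraries 247 and 253, were chosen after seeing the data.

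Of 286 values of named members under alternatives, 15 reversed, none past the threshold. With the length trend removed NDUFS5 was at -0.20, UQCRQ at -0.036, UQCRH at -0.24, ATP5G3 at -0.44 and NDUFA4 at -0.11. On the TPM scale UQCRH was at -0.0023, ATP5G3 at -0.23 and NDUFA4 at -0.17, and after size factors ATP5G3 was at -0.22 and NDUFA4 at -0.16. With the GC trend removed CYC1 was at -0.037, ATP5G3 at -0.22 and NDUFA4 at -0.075. Without split 9 and libraries 247 and 253 SDHC was at 0.27 and NDUFA4 at -0.0080. The causes were not tested. Counts of detected members moved by less than the spread between libraries. Ratios of complex sums were all lower on the TPM scale and after size factors. On the TPM scale the ratio was 0.892 for complex I, 1.39 for complex IV and 0.785 for complex V, against 1.07, 1.67 and 0.936. The complex I ratio crossed 1 after size factors and on the TPM scale, and the complex V ratio without run a. Library 247, at 0.128 M fragments, gives a median of about 8.31 fragments per member.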
